A study of Caenorhabditis elegans with 8 samples.

Results

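The aminoacyl-tRNA synthetase genes of C. elegans were compared between pals-17(*) mutants and wild-type animals. Members were all rows of the deposited expression table whose gene name is a letter for an amino acid followed by ars and the suffix -1 or -2. This rule found 32 of 14541 genes, of which 20 carried the suffix -1 and 12 the suffix -2. The rule takes -1 as the cytosolic and -2 as the mitochondrial form. The rule uses names alone and no measured value, but it was chosen with earlier results of these data known.

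An aminoacyl-tRNA synthetase joins 1 amino acid to its tRNAs, and the charged tRNA then carries the amino acid to the ribosome. Animals use a cytosolic set for proteins made from nuclear messages and a mitochondrial set, also encoded in the nucleus, for the few proteins made inside mitochondria. The enzymes fall into a pair of unrelated structural classes, class I and class II. When an amino acid runs short, uncharged tRNA activates the kinase GCN2, which phosphorylates the initiation factor eIF2 and raises the translation of the transcription factor ATF4, and in mammals ATF4 raises the transcription of many cytosolic synthetase genes.

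The study set the 2 strains side by side to see which genes depend on pals-17, a gene that holds back the intracellular pathogen response, a transcriptional program triggered by microsporidia and the Orsay virus. The wild type was the strain N2, grown for 48 h at 20 °C from the first larval stage. The mutant pals-17(*) carries stop codons placed by CRISPR/Cas9 in the pals-17 coding sequence, and was grown for 72 h at 20 °C because it develops more slowly. RNA was taken from pools of whole animals, with 4 libraries per strain. Both strains were collected near the L4 stage, but mutant pools were of mixed stages because their animals develop at unequal rates. Growth time, stage and genotype cannot be told apart here. In bulk RNA from whole animals, fewer cells of a type and less RNA per cell cannot be told apart either.

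Each library held between 17871320 and 23378799 reads, and the synthetase genes had between 103 and 10853 reads each in a library. Levels are given as CPM, the reads scaled to a common size by the authors' scaled library sizes. The targeted gene, pals-17, lay between 14.3 and 19.3 CPM in the wild type and between 4.07 and 4.60 CPM in mutants. All 14 germline markers were higher in mutants, with summed levels of 2870 to 3360 CPM against 323 to 753 CPM in the wild type. All 10 markers of oocytes and early embryos were higher too, with 2192 to 3024 CPM against 37.9 to 115.8 CPM, as were the 8 sperm markers, with 349 to 411 CPM against 13.4 to 44.1 CPM. All 9 intestinal markers were lower in mutants, with 5317 to 6458 CPM against 22066 to 24798 CPM, and so were all 8 markers of the molting cuticle, with 937 to 1171 CPM against 6088 to 7117 CPM. None of these markers was at 0 in any library. Their part in the results on synthetase genes was not tested.

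On the deposited scale, most synthetase genes were lower in pals-17(*) mutants, by amounts that stayed below a halving of the level. With limma, 24 of 32 genes were lower at an adjusted p-value under 0.05, 2 were higher and 6 did not pass. Over all 14541 genes tested the same comparison called 41.2% lower and 42.5% higher, 83.7% in all. The median change of the synthetase genes, as a log2 fold change, was -0.38, with quartiles of -0.58 and -0.15, beside 0.0041 over all genes. Of the 32 genes, 29 lay below the median of all genes. No synthetase gene was called with a log2 fold change below -1, where 20.0% of all genes were, and the count was 0 as well at an unadjusted p-value under 0.05 and with limma's voom weights. In 22 of the lower genes and in both higher genes the 4 libraries of a strain did not overlap those of the other strain, against 39.0% and 41.2% of all genes.

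Of the 32 synthetase genes, 15 had a mean log2 level above 7, 16 had one from 4 to 7, and cars-2 lay below. Genes above 7 were mostly lower on the deposited scale, less so by quantile normalization, which gave 564 lower and 473 higher. On the deposited scale limma called, of these 1288 genes, 1013 lower (78.6%) and 133 higher, with a median change of -0.80 on the log2 scale. Among the 5530 genes with a mean log2 level from 4 to 7, it called 2747 lower (49.7%) and 1867 higher, with a median of -0.20.

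**Figure D1:**
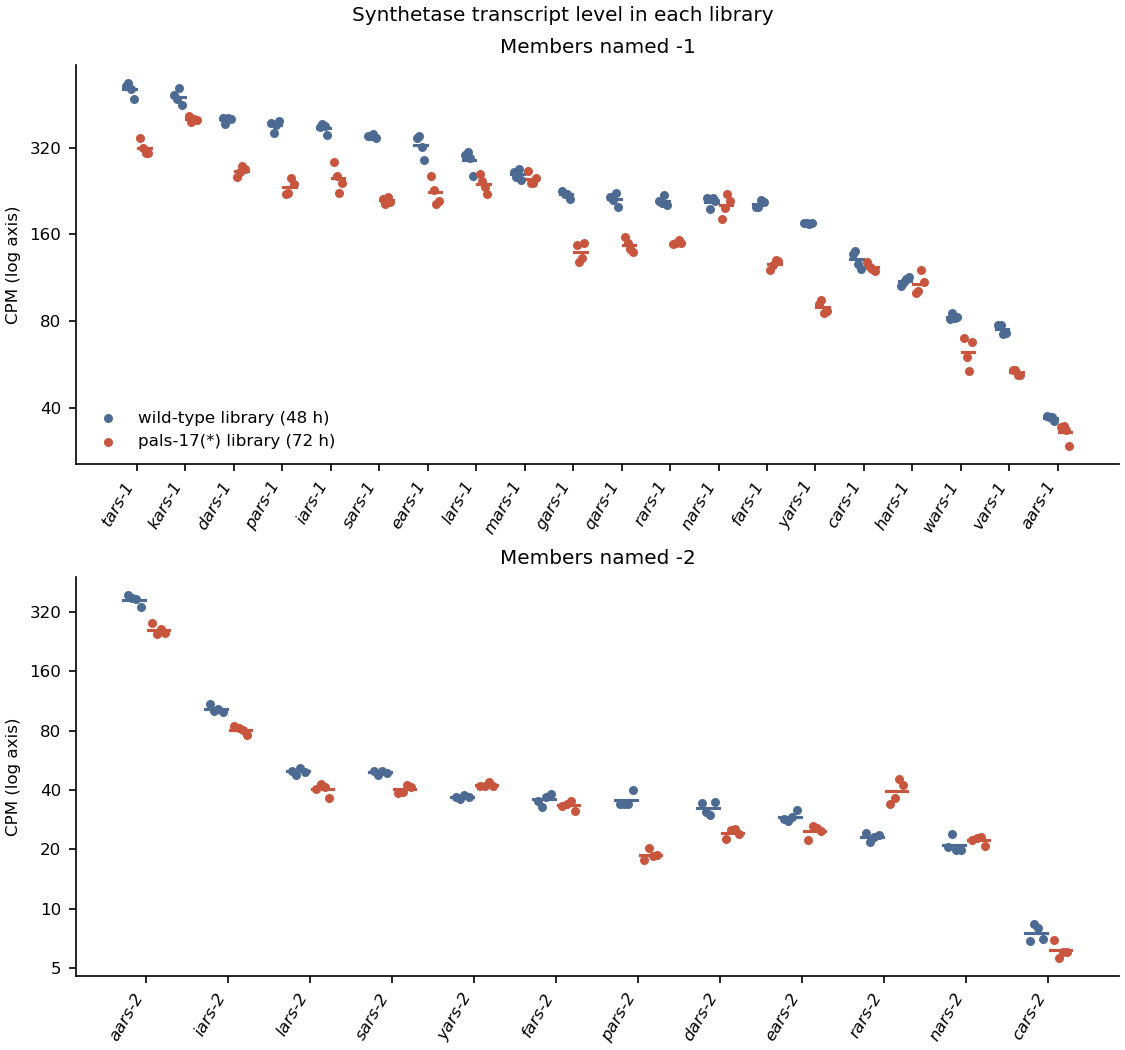
Level of each of the 32 synthetase genes in each of the 8 libraries, in CPM on a log axis, with 1 point per library, the strains in separate colors, a line at the strain mean, and the -1 and -2 genes in separate panels. In yars-1 the mutant libraries lie between 85.1 and 94.3 CPM, below all wild-type libraries, whereas in rars-2 they lie between 34.0 and 45.4 CPM, above all of them. These directions of yars-1 and rars-2 held under all 4 scalings, and those of most other genes did not.

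The direction of the group as a whole depended on how libraries were scaled to each other. The authors' scaled library sizes were 0.793 to 0.822 times the total reads in the wild type and 1.2 to 1.26 times in mutants, which lowers mutant values relative to a scaling by totals. When each library was divided by its total, the median of all genes moved to 0.60 and that of the synthetase genes to 0.22, and limma called 3 of them lower and 17 higher, with 23.3% and 60.1% over all genes. When each library was centred on its median, the medians were -0.27 over all genes and -0.66 over the synthetase genes, with 29 called lower and 1 higher, against 50.0% and 36.1%. These scalings and the deposited one differ only by a shift of all genes in a library, so gaps between medians cannot differ. Under each, the median of the synthetase genes lay 0.38 below that of all genes. With quantile normalization, which forces the 8 libraries to the same distribution of values, it lay 0.18 above. There the medians were 0.06 for the synthetase genes and -0.12 for all genes, and limma called 8 lower and 14 higher, against 45.5% and 39.1%. As a share of all reads, the 32 genes took 0.474% ± 0.0116 in the wild type and 0.524% ± 0.00803 in mutants (SD, n = 4), whereas their summed level in scaled CPM was 5829 ± 151 and 4258 ± 87.3.

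**Figure D2:**
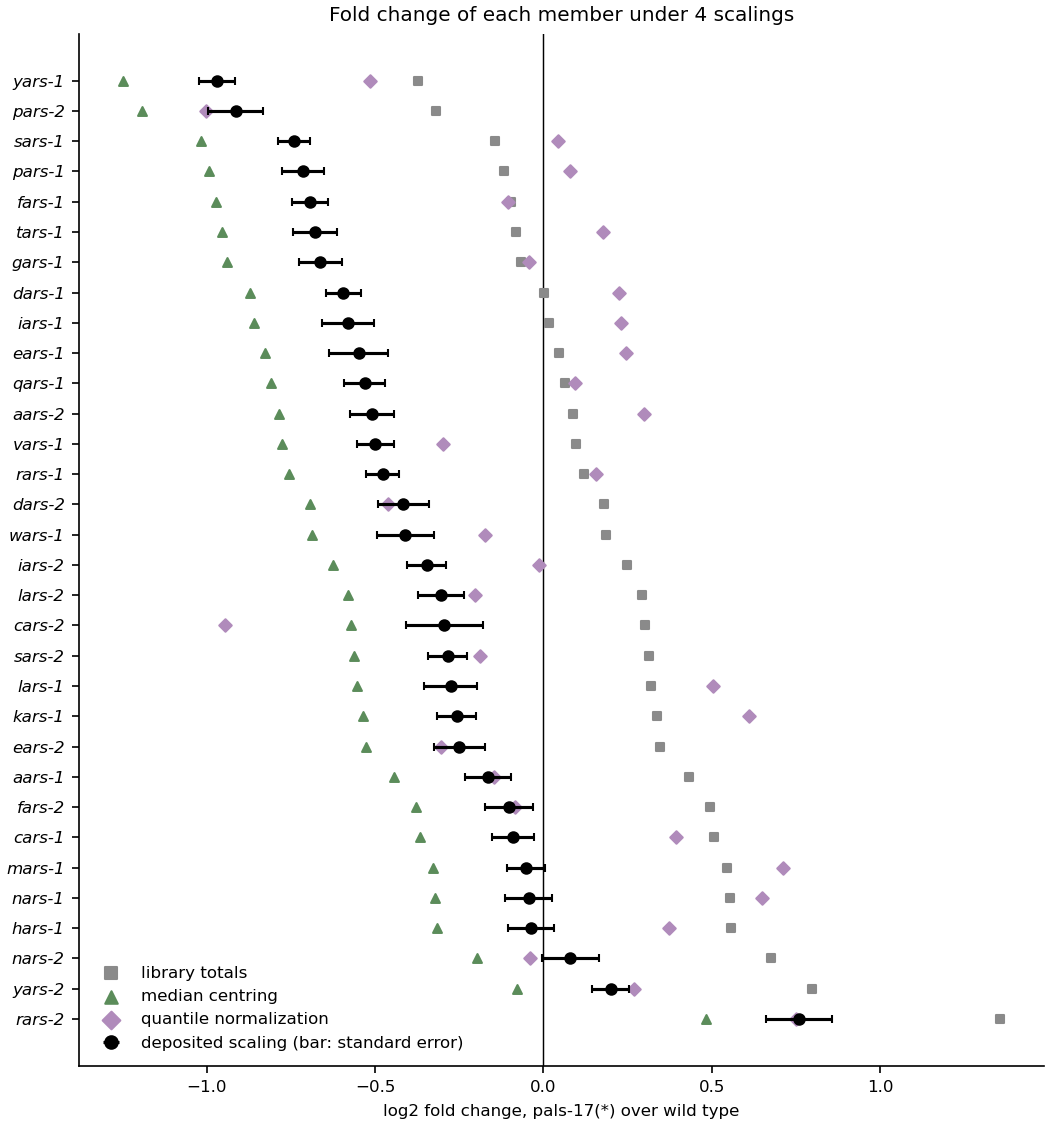
Log2 fold changes of the 32 synthetase genes between pals-17(*) and wild type under 4 ways of scaling the libraries, with 1 point per gene and scaling. Bars are standard errors on the deposited scale, and the vertical line marks no change. Medians are not drawn. The median of the synthetase genes was -0.38 on the deposited scale, 0.22 by library totals, -0.66 after median centring and 0.06 after quantile normalization.

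Only 3 synthetase genes were called in the same direction under every setting tried, that is the deposited values and 18 alternatives of scaling, model, filter, threshold and left-out library. These were yars-1 and pars-2, lower in mutants, and rars-2, higher in mutants. The gene yars-1 (WBGene00013677), which encodes tyrosyl-tRNA synthetase, lies on chromosome I at 14476759 to 14486767 on the minus strand of WBcel235. Its levels were 175, 175, 174 and 176 CPM in wild-type replicates 1 to 4 and 91.8, 94.3, 85.1 and 86.5 CPM in the mutant replicates. The wild-type libraries differed by little and every mutant library was far below them. The log2 fold change of yars-1 was -0.97 ± 0.0532 (SE), with an adjusted p of 8.31e-08 by limma, and the mean level in mutants was 51.1% of that in the wild type. It was -0.37 when scaled by library totals (adjusted p = 0.000146), -1.25 after median centring and -0.51 after quantile normalization (adjusted p = 1.12e-05).

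The gene pars-2 (WBGene00004190) encodes a prolyl-tRNA synthetase that the rule counts as mitochondrial, and lies on chromosome I at 12486944 to 12490890 on the plus strand. It had 34.2, 33.9, 33.9 and 40.1 CPM in the wild type and 17.8, 20.3, 18.6 and 18.6 CPM in mutants. Wild-type replicate 4 stood above the other wild-type libraries, and the strains did not overlap. Its log2 fold change was -0.91 ± 0.0809 (adjusted p = 2.43e-06, limma). By library totals it was -0.32 (adjusted p = 0.00743), by median centring -1.19 and by quantile normalization -1.002. Exons of pars-2 share 153 bases on the same strand with T27F6.6, which had a log2 fold change of -1.71, so reads in those bases cannot be assigned to either gene.

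The gene rars-2 (WBGene00004680), for the mitochondrial arginyl-tRNA synthetase, lies on chromosome II at 6125559 to 6127942 on the plus strand. Its levels were 24.3, 21.7, 23.2 and 23.6 CPM in the wild type and 34.0, 36.3, 45.4 and 42.5 CPM in mutants. All mutant libraries were above all wild-type libraries, and the mutants varied more (SD 5.28 against 1.07 CPM). The log2 fold change was 0.76 ± 0.0979 (adjusted p = 3.97e-05, limma), or 170.4% of the wild-type level. It was 1.36 by library totals, 0.48 after median centring (adjusted p = 0.000671) and 0.75 after quantile normalization.

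The other higher gene was yars-2 (WBGene00006968), for the mitochondrial tyrosyl-tRNA synthetase, on chromosome IV at 4710861 to 4712624 on the minus strand. It measured 36.8, 35.8, 37.8 and 37.0 CPM in the wild type and 41.9, 41.8, 43.8 and 42.0 CPM in mutants. The strains did not overlap, though the gap was small. Its log2 fold change of 0.20 ± 0.0549 (adjusted p = 0.00632, limma) was 0.80 by library totals and 0.27 by quantile normalization (adjusted p = 0.00122), but -0.08 after median centring (adjusted p = 0.206).

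Of the 20 genes with the suffix -1, limma called 16 lower and 0 higher on the deposited scale, with a median change of -0.51 on the log2 scale. The count of higher genes was 0 also at an unadjusted p-value under 0.05 and with voom. This direction did not hold under each scaling: 2 were lower and 8 higher by library totals (median 0.08), 20 lower by median centring (median -0.79), and 2 lower and 11 higher by quantile normalization (median 0.17). For comparison, over all genes 23.3% were lower and 60.1% higher by library totals, and 50.0% and 36.1% by median centring. By quantile normalization the shares were 45.5% and 39.1%. On the deposited scale 41.2% of all genes were lower. Among all genes with a mean log2 level above 7 the share was 78.6%, with a median change of -0.80. On the deposited scale the largest falls after yars-1 were those of sars-1 and pars-1, for seryl- and prolyl-tRNA synthetase. The levels of sars-1 were 351, 349.7, 357 and 346 CPM in the wild type and 213, 204, 216 and 208 CPM in mutants. Those of pars-1 were 390.0, 360.1, 383 and 395 CPM in the wild type and 221, 222, 251 and 239 CPM in mutants. Neither gene had a mutant library within the range of the wild type. The log2 fold changes were -0.74 ± 0.0478 for sars-1 (adjusted p = 2.49e-07) and -0.71 ± 0.0619 for pars-1 (adjusted p = 2.08e-06), both by limma. In sars-1 the value was still below 0 by library totals (-0.14, adjusted p = 0.0129) but above 0 by quantile normalization (0.04).

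Next in size on the deposited scale were fars-1 (-0.69), tars-1 (-0.68), gars-1 (-0.66), dars-1 (-0.59), iars-1 (-0.58), ears-1 (-0.55) and qars-1 (-0.53), for phenylalanyl-, threonyl-, glycyl-, aspartyl-, isoleucyl-, glutamyl- and glutaminyl-tRNA synthetase. They were followed by vars-1 (-0.50), rars-1 (-0.48), wars-1 (-0.41), lars-1 (-0.28) and kars-1 (-0.26), for the valyl, arginyl, tryptophanyl, leucyl and lysyl enzymes. Of these genes, kars-1 had the highest wild-type level per length of all 32, at 232 CPM per kb of exon. All these genes passed the test, and lars-1 alone among them had strains that overlapped. A single gene serves both compartments for lysine and glycine in humans, and glutamine needs no mitochondrial synthetase because mitochondria charge its tRNA with glutamate first and then amidate it.

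Of the genes with the suffix -1, 4 did not pass the test on the deposited scale: cars-1, mars-1, nars-1 and hars-1. The gene cars-1, for cysteinyl-tRNA synthetase, had 136, 140.0, 126 and 121 CPM in the wild type and 128, 123, 122 and 119 CPM in mutants (a log2 change of -0.09, adjusted p = 0.196, limma). For mars-1, the methionyl enzyme, the values were 264, 254, 269 and 248 CPM against 265, 240.2, 242 and 251 CPM (-0.05, adjusted p = 0.405). The strains overlapped in both, with mutant replicate 4 of cars-1 and mutant replicates 2 and 3 of mars-1 just below the wild-type range. The asparaginyl gene nars-1 had 213, 196, 213 and 208 CPM in the wild type and 181, 197, 220.1 and 209 CPM in mutants (-0.04, adjusted p = 0.572). The histidyl gene hars-1 had 106, 109.6, 112 and 114 CPM against 99.98, 102, 120.4 and 108.9 CPM (-0.04, adjusted p = 0.614). In nars-1 and hars-1 the mutant libraries spread to both sides of the wild type. Under library totals these genes had log2 fold changes of 0.51, 0.54, 0.55 and 0.56 in the order cars-1, mars-1, nars-1 and hars-1.

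Of the 12 genes with the suffix -2, limma called 8 lower and 2 higher on the deposited scale, with a median of -0.29. By library totals 1 was lower and 9 higher (median 0.31), and by median centring 9 were lower and 1 higher (median -0.57). By quantile normalization 6 were lower and 3 higher (median -0.14). Over all genes the shares called lower and higher were 41.2% and 42.5% on the deposited scale and 23.3% and 60.1% by library totals. They were 50.0% and 36.1% by median centring and 45.5% and 39.1% by quantile normalization. Besides pars-2, the -2 genes lower on the deposited scale were aars-2 (-0.51), dars-2 (-0.42), iars-2 (-0.35), lars-2 (-0.30), cars-2 (-0.29), sars-2 (-0.28) and ears-2 (-0.25). The median of the -1 genes lay 0.23 below that of the -2 genes on the deposited scale. Library totals and median centring cannot change this gap. After quantile normalization the median of the -1 genes lay 0.30 above that of the -2 genes. The difference between the forms was not tested over the genes as a group, and the forms were not matched by level. On the deposited scale all genes with a mean log2 level above 7 had a median of -0.80, and those from 4 to 7 one of -0.20.

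The genes fars-2 and nars-2 did not pass. The phenylalanyl gene fars-2 had 35.3, 33.0, 37.0 and 38.2 CPM in the wild type and 33.4, 33.9, 35.3 and 31.1 CPM in mutants (a log2 change of -0.10, adjusted p = 0.205, limma). The asparaginyl gene nars-2 had 20.6, 24.0, 19.8 and 20.0 CPM against 22.3, 22.9, 23.1 and 20.8 CPM (0.08, adjusted p = 0.387). The strains overlapped in both genes.

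The least expressed of the 32 was cars-2 (WBGene00000801), at 4.33 CPM per kb in the wild type. It is annotated as a pseudogene in Ensembl release 115 and begins 1107 bases from cars-1. It had 6.89, 8.36, 7.95 and 7.02 CPM in the wild type and 6.96, 5.65, 6.004 and 6.04 CPM in mutants, so that mutant replicate 1 lay within the wild-type range. Its adjusted p of 0.0339 by limma, with a log2 fold change of -0.29, did not hold without some single libraries. It was 0.0850 without wild-type replicate 2 (-0.24), 0.0778 without wild-type replicate 3 (-0.27), 0.0919 without mutant replicate 2 (-0.25), 0.0719 without mutant replicate 3 (-0.28) and 0.0713 without mutant replicate 4 (-0.29). The log2 fold change of cars-2 was 0.30 by library totals (adjusted p = 0.0255), -0.57 after median centring and -0.94 after quantile normalization (adjusted p = 3.61e-05). Without cars-2, 7 of 11 genes with the suffix -2 were lower on the deposited scale, with a median of -0.28, where 41.2% of all genes were lower.

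For alanine the levels ran against the suffix. Without aars-1 and vars-1, the -1 genes ranged from 41.0 CPM per kb (wars-1) to 232 CPM per kb in the wild type, and without aars-2 the -2 genes ranged from 4.33 to 35.0 CPM per kb. In contrast, aars-1 had 12.4 CPM per kb and aars-2 had 118 CPM per kb. In C. elegans, aars-2 is known as the cytosolic alanyl-tRNA synthetase and aars-1 as the mitochondrial one. The gene vars-1, at 24.1 CPM per kb, likewise lay in the range of the -2 genes, and is known as the mitochondrial valyl enzyme. The cytosolic valyl-tRNA synthetase is encoded by glp-4, whose name the rule does not match, and which had 139.8 CPM per kb.

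The levels of aars-2 were 390.0, 378, 372 and 339 CPM in the wild type and 281, 248, 262 and 249 CPM in mutants, with a log2 fold change of -0.51 ± 0.0655 (adjusted p = 3.96e-05, limma). Those of aars-1 were 37.3, 37.0, 37.0 and 36.1 CPM against 34.3, 34.5, 33.6 and 29.5 CPM, with -0.16 ± 0.0685 (adjusted p = 0.0453). Both genes had strains that did not overlap, but aars-1 was just inside the threshold. The call of aars-1 was lost without wild-type replicate 1 (adjusted p = 0.0940), 2 (0.0788), 3 (0.0863) or 4 (0.0635) and without mutant replicate 3 (0.0620) or 4 (0.128), where the log2 fold change was -0.11. The gene vars-1 had 77.8, 77.2, 72.0 and 72.8 CPM in the wild type and 54.3, 54.3, 51.8 and 51.8 CPM in mutants. Its log2 fold change was -0.50 ± 0.0554 (adjusted p = 1.32e-05), with no overlap, and was 0.10 by library totals (adjusted p = 0.159).

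A further grouping, chosen after these levels were seen, counted aars-2 as cytosolic and aars-1 and vars-1 as mitochondrial. On the deposited scale 15 of 19 cytosolic genes were lower (median -0.53), and 9 of 13 mitochondrial genes were lower and 2 higher (median -0.28). Without cars-2, annotated as a pseudogene, 8 of 12 mitochondrial genes were lower and 2 higher (median -0.27). With glp-4 added, 16 of 20 cytosolic genes were lower, with a median of -0.54. Of all genes 41.2% were lower on this scale, and of those with a mean log2 level above 7, 78.6%.

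The gene glp-4 (WBGene00006936) is named for the sterile adults of its temperature-sensitive mutant, in which germ cells arrest. It had 512, 542, 494 and 446 CPM in the wild type and 212, 199, 182 and 177 CPM in mutants, where mutant libraries were all far below the wild type. Its log2 fold change was -1.37 ± 0.0799 (adjusted p = 1.22e-07, limma), or 38.6% of the wild-type level, a larger fall than in any of the 32 genes of the rule on the deposited scale. It was -0.78 by library totals (adjusted p = 6.01e-06), -1.65 after median centring and -0.57 after quantile normalization (adjusted p = 3.34e-05), where the falls of pars-2 and cars-2 were larger. The germline markers rose in the same libraries, as given above.

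**Figure D3:**
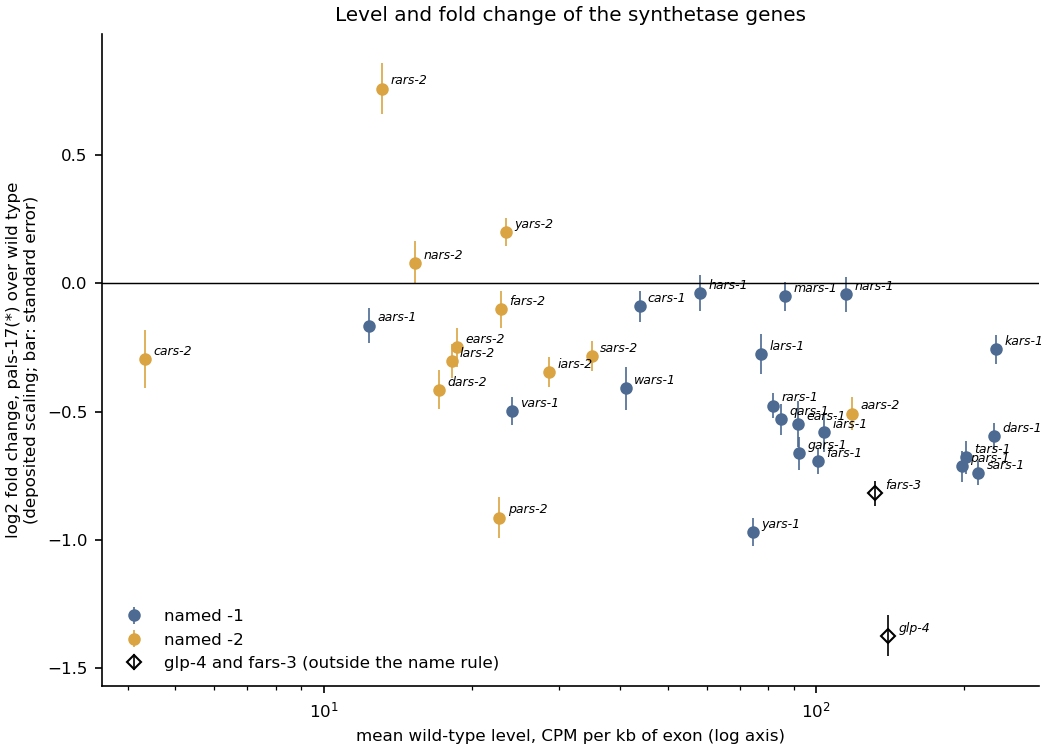
Log2 fold change of the 32 synthetase genes and of glp-4 and fars-3 on the deposited scale, against the wild-type level in CPM per kb of exon on a log axis. Genes with the suffix -1 lie mostly between 41.0 and 232 CPM per kb, apart from aars-1 (12.4) and vars-1 (24.1), and aars-2 lies at 118 CPM per kb among them. Bars are standard errors. By library totals and by quantile normalization the median of these genes lies above 0 instead.

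A ratio of 2 genes within a library is the same under the deposited scaling, library totals and median centring. For 12 amino acids the table holds both a -1 and a -2 gene, and the log2 ratio of the -1 to the -2 gene was taken in each library. The ratio was lower in mutants with no overlap between strains in 6 pairs, higher with no overlap in 1 pair, and overlapped in 5, and the median change was -0.21. Without overlap of 4 and 4 libraries the exact 2-sided permutation test gives p = 0.0286, the smallest it can give, unadjusted over the 12 pairs. For comparison, 80.2% of all single genes did not overlap, and no background was computed for ratios. Quantile normalization, added after these ratios were seen, shifts genes by their level, and there the ratio was lower in 4 pairs and higher in 8, with the direction turned in 6 pairs: serine, isoleucine, aspartate and alanine, which had not overlapped, and glutamate and asparagine, which had.

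The largest change on the deposited scale was in arginine. The rars-1 gene, on chromosome III at 4914088 to 4917177, had 208, 206, 219 and 202 CPM in the wild type and 149, 149, 152 and 149 CPM in mutants, a log2 fold change of -0.48 ± 0.0494 (adjusted p = 7.81e-06, limma), while rars-2 rose. Hence the level of rars-1 was 8.98 times that of rars-2 in the wild type and 3.81 times in mutants, a change in the log2 ratio of -1.24 ± 0.1003 (SE, n = 4 per strain, exact permutation p = 0.0286). After quantile normalization the change was -0.59. The log2 ratios were 3.10, 3.24, 3.24 and 3.09 in the wild type and 2.13, 2.04, 1.75 and 1.81 in mutants. Every mutant library had a smaller ratio than any wild-type library.

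In tyrosine the ratio of yars-1 to yars-2 fell from 4.74 to 2.11, with a log2 change of -1.17 ± 0.0512, and of -0.78 after quantile normalization. Both the fall of yars-1 and the rise of yars-2 on the deposited scale entered it. Exons of yars-1 share 136 bases on the opposite strand with ekl-4, whose log2 fold change was 0.92, and the use of strand in counting is not given in the sources used here.

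In phenylalanine the ratio of fars-1 to fars-2 fell from 5.68 to 3.77, a log2 change of -0.59 ± 0.0560, and -0.02 after quantile normalization. The cytosolic phenylalanyl enzyme has a pair of subunits, encoded by fars-1 and fars-3. The levels of fars-1 were 198, 199, 210.5 and 207 CPM in the wild type and 120.0, 125, 130.2 and 129 CPM in mutants. Those of fars-3 were 245, 247, 259 and 252 CPM against 142.2, 139, 147 and 140.2 CPM. Both subunit genes were lower in every mutant library than in any wild-type library. The log2 fold changes were -0.69 ± 0.0524 for fars-1 (adjusted p = 7.5e-07) and -0.82 ± 0.0489 for fars-3 (adjusted p = 1.46e-07), by limma. In fars-3 the fall held by library totals (-0.22, adjusted p = 0.00122) and quantile normalization (-0.17, adjusted p = 0.0108), whereas in fars-1 it did not pass by either (-0.10, adjusted p = 0.114, and -0.11, adjusted p = 0.141). The ratio of fars-1 to fars-3 was 0.813 in the wild type and 0.886 in mutants, a log2 change of 0.13 ± 0.0267 with no overlap, so the subunit genes did not fall by quite the same amount.

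The ratio fell too in serine (7.14 to 5.21), isoleucine (3.63 to 3.09) and aspartate (12.3 to 10.9), with log2 changes of -0.46 ± 0.0317, -0.23 ± 0.0657 and -0.18 ± 0.0530 and no overlap, but after quantile normalization the changes were 0.23, 0.24 and 0.68. The 1 pair with a higher ratio was aars-1 to aars-2, at 0.0998 in the wild type and 0.127 in mutants, a log2 change of 0.34 ± 0.0606 that became -0.45 after quantile normalization. Since aars-2 is the cytosolic form, the ratio of the cytosolic to the mitochondrial gene was lower in mutants for alanine as well on the deposited scale. The same held for glp-4 to vars-1, which fell from 6.64 to 3.62 (log2 change -0.88 ± 0.0596, no overlap, and -0.27 after quantile normalization).

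The strains overlapped in glutamate (log2 change -0.30, exact permutation p = 0.0857), asparagine (-0.12, p = 0.257), leucine (0.03, p = 0.8286), proline (0.20, p = 0.0857) and cysteine (0.20, p = 0.0857). After quantile normalization these changes were 0.55, 0.69, 0.71, 1.08 and 1.34 in the same order, so that proline and cysteine then changed by more than arginine and tyrosine. The cysteine ratio rests on cars-2, which is annotated as a pseudogene and had the fewest reads of all the synthetase genes. In leucine both genes were lower by a like amount on the deposited scale. The lars-1 gene had 302, 308, 294 and 254 CPM in the wild type and 259, 244, 233 and 220.4 CPM in mutants. The lars-2 gene had 50.0, 47.5, 51.9 and 49.4 CPM against 40.5, 43.1, 41.2 and 36.6 CPM. Wild-type replicate 4 of lars-1 lay within the mutant range, and lars-2 did not overlap. Their adjusted p-values were 0.00742 and 0.00184 by limma.

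**Figure D4:**
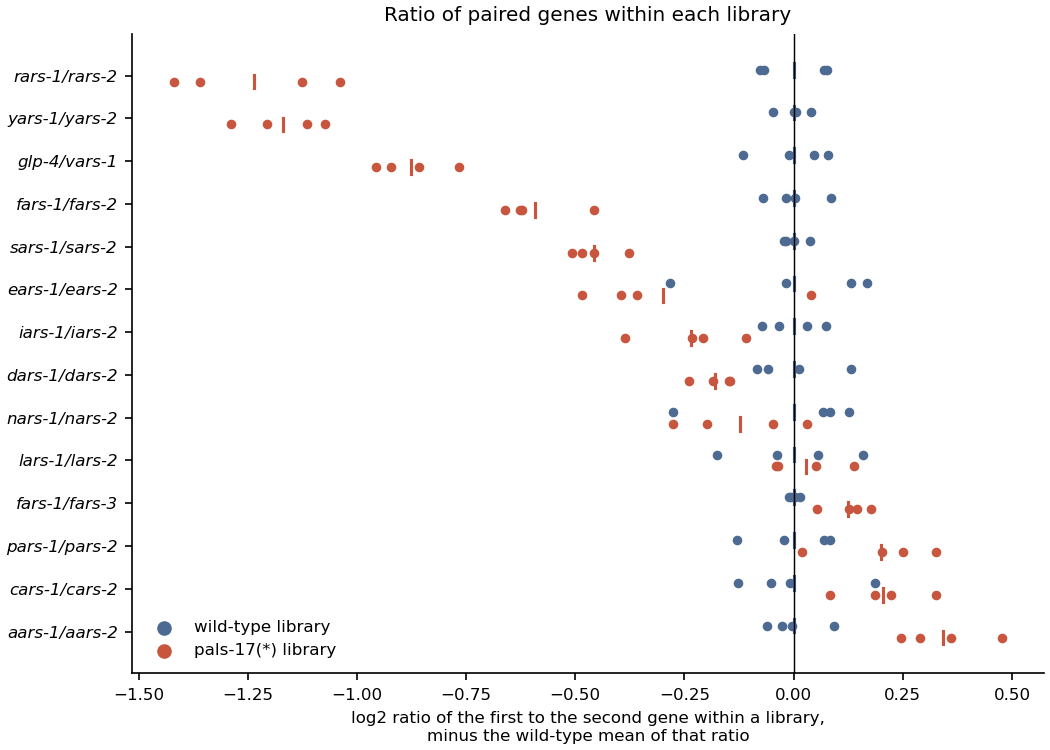
Within-library log2 ratio of the first to the second gene of a pair, minus the wild-type mean of that ratio, with 1 point per library in each strain. Shown are the -1 to the -2 gene for the 12 amino acids with both, glp-4 to vars-1, and fars-1 to fars-3. Of the 12 pairs, 6 had a lower ratio in all mutant libraries than in all wild-type libraries. On the deposited scale the largest changes were in arginine (-1.24) and tyrosine (-1.17). The ratio was higher for aars-1 to aars-2. Library totals and median centring leave these values as they are, and quantile normalization turns the direction for serine, isoleucine, aspartate, alanine, glutamate and asparagine.

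The structural classes differed little in their counts. On the deposited scale, 12 of 16 class I genes were lower and 2 higher (median -0.33), and 12 of 16 class II genes were lower and 0 higher (median -0.46). Of all genes, 41.2% were lower and 42.5% higher there, and of those with a mean log2 level above 7, 78.6% were lower. By library totals the medians of classes I and II were 0.27 and 0.13, after median centring -0.60 and -0.74, and after quantile normalization 0.13 and 0.0020.

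The libraries of a strain were close to each other, with SDs of the log2 level between 0.0070 and 0.19 over the 32 genes. Wild-type replicate 4 was the lowest wild-type library for 12 of the 20 genes with the suffix -1 and for 2 of the 12 with the suffix -2, and it also had the lowest sum of germline markers, 323 CPM. Mutant replicate 1 was the highest mutant library for 9 of the 20. Leaving out any 1 library gave between 22 and 24 lower genes and 2 higher genes on the deposited scale. Exons of 11 of the 32 genes share bases with another gene in the table, at most 153.

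Genes that act beside the synthetases were taken from 4 lists. For comparison, 41.2% of all genes and 78.6% of those with a mean log2 level above 7 were lower on the deposited scale. Cytosolic elongation factors serve, directly or through each other, the delivery of charged tRNA to the ribosome and its movement there. All 6 listed genes were lower on the deposited scale (median -0.47) and after median centring. But 1 was lower and 1 higher by library totals, and 1 lower and 5 higher by quantile normalization. The gene eef-1A.1, which delivers charged tRNA, had 10393, 11014, 10418 and 9043 CPM in the wild type and 8028, 6882, 7414 and 7920.3 CPM in mutants (a log2 change of -0.43, adjusted p = 0.00151, limma). The translocation factor gene eef-2 had -0.62 (adjusted p = 3.32e-05). By quantile normalization the 2 values were 0.59 and 0.52. The paralog eef-1A.2 had a log2 fold change of -1.28 and was named after its value was seen.

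All 4 mitochondrial elongation factor genes in the table were lower on the deposited scale (median -0.90), by library totals (median -0.31) and after median centring (median -1.18), and 3 of them after quantile normalization (median -0.51). The gene tufm-1, which delivers charged tRNA in mitochondria, had 446, 469.9, 425 and 408 CPM in the wild type and 273, 270.2, 242 and 244 CPM in mutants (a log2 change of -0.77, adjusted p = 2.48e-06, limma). Its value was 0.05 after quantile normalization (adjusted p = 0.526). The translocation factor gene gfm-1 had -1.02 (adjusted p = 3.58e-06). On the deposited scale the median of these partners of the mitochondrial synthetases lay below that of the -2 genes (-0.29). By library totals the medians were -0.31 and 0.31, with opposite signs. That scaling cannot change the gap between them. The difference was not tested, and levels were not matched between these groups. On the deposited scale all genes with a mean log2 level above 7 had a median of -0.80, and those from 4 to 7 one of -0.20.

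The list for amino acid starvation signalling held atf-5, gcn-1, gcn-2, pek-1, eif-2alpha, eif-2beta and eif-2gamma. Of these, pek-1 encodes an eIF2 kinase of endoplasmic reticulum stress rather than of amino acid shortage. All 7 listed genes were lower on the deposited scale (median -0.56, the value of pek-1). So were 41.2% of all genes and 78.6% of those with a mean log2 level above 7. Of the list, 1 was lower and 2 higher by library totals, 7 lower by median centring, and 3 lower and 2 higher by quantile normalization. The eIF2 subunit genes eif-2gamma and eif-2alpha had -0.72 (adjusted p = 2.67e-06) and -0.33 (adjusted p = 0.000174) by limma. Their values were -0.13 and 0.27 by library totals. The exception in size, named after its value was seen, was atf-5, the worm counterpart of ATF4. It had 299, 324, 353 and 330.3 CPM in the wild type and 64.4, 58.9, 57.5 and 58.8 CPM in mutants. The log2 fold change of atf-5 was -2.45 ± 0.0659 (adjusted p = 1.33e-09, limma), and it was -1.85 by library totals, -2.72 after median centring and -1.95 after quantile normalization.

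The remaining list held 9 genes, the synthetase subunit fars-3 and enzymes that process or modify tRNAs. On the deposited scale 2 were lower and 5 higher (median 0.19), by library totals 1 and 7, after median centring 3 and 1, and after quantile normalization 2 and 6. The gene elpc-1, for a subunit of the Elongator complex that modifies wobble uridines, had 60.5, 54.4, 55.7 and 53.3 CPM in the wild type and 77.1, 74.97, 73.9 and 71.0 CPM in mutants. Its log2 fold change was 0.41 ± 0.0610 (adjusted p = 0.000117, limma), with no overlap, and 0.13 after median centring (adjusted p = 0.0637). Apart from fars-3, the lower gene was tut-1 (-0.64), which acts in the thiolation of the same uridines and was named after its value was seen.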

How the data were processed

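RNA-seq of whole animals was analysed in 4 wild-type and 4 pals-17(*) libraries. Libraries were made with a stranded mRNA kit. The authors mapped paired reads to C. elegans WS235 with Rsubread, ran limma-voom in Galaxy and removed genes under 1 CPM, and the submitters' processing notes name featureCounts and limma. The scaling method, annotation and use of strand are not given in the sources used here. The deposited table holds 14542 rows of normalized log2 values with a column for each library, of which 1 row names no gene (0.00417% of reads) and was left out. For 100% of the deposited log2 values, solving the steps gave reads within 0.01 of a whole number, as log2 of the reads plus 0.5 over a scaled library size. A read is worth 0.0522 to 0.0681 CPM in the wild type and 0.0362 to 0.0446 CPM in mutants. The paper describes up to 4 plates of L4 animals per strain and replicate, and the labels do not say whether replicates came from independent cultures. P-values therefore measure the spread between these samples, which may not be that between independent cultures.

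Strains were compared with limma 3.58.1 (R 4.3.3) on the deposited values, with equal weights and an intensity trend. P-values were adjusted by Benjamini-Hochberg over 14541 genes, and calls made at an adjusted p under 0.05. With voom weights on the recovered reads, 6018 genes were lower and 6198 higher. The fit was tested on simulated data. Within-library ratios were compared by exact permutation (2-sided, all 70 relabellings of the 8 libraries). Coordinates and exon lengths came from Ensembl release 115 (WBcel235). Values in every library are given for the 3 genes of each suffix with the largest called change, all that were higher or did not pass, both genes of the 3 amino acid pairs that differed most and the 1 that differed least, and the aars and vars genes. Of each other list the 2 most abundant genes are named. The members, lists and tests were chosen with earlier results of these data known.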

Additional observations from a re-analysis of the deposited data

Results flagged for a closer look

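In 5 of 98 groups of 4 libraries, 1 library lay far from the other 3 by Dixon's test, where chance alone flags about 1 in 20 groups. The lowest mutant library of aars-1 was replicate 4, at a log2 level of 4.88 against 5.07 to 5.11 in the others. In dars-1, wild-type replicate 2 was lowest, at 8.60 against 8.66 to 8.67. In pars-2, wild-type replicate 4 was highest, at 5.33 against 5.08 to 5.10. In yars-2, mutant replicate 3 was highest, at 5.45 against 5.39. In the log2 ratio of nars-1 to nars-2, wild-type replicate 2 was lowest, at 3.02 against 3.37 to 3.43.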

How the results depend on the processing

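Counts and medians over the synthetase genes kept their direction, and counts stayed within 1.5 times, with voom weights, without the intensity trend, with robust moderation, with 1 CPM added, with a filter of 1 CPM in 4 libraries and at an adjusted p under 0.01 (21 lower, 2 higher). The scaling moved them, by the shift it gives to all genes, except that quantile normalization also bends the scale and the cause was not tested. By library totals, 3 genes were lower and 17 higher, with 2 lower -1 genes and 1 lower -2 gene, and medians of 0.22, 0.0815 (-1) and 0.31 (-2). By median centring, 1 was higher, 3 had a log2 fold change below -1, and the medians were -0.66, -0.79 and -0.57. By quantile normalization, 8 were lower and 14 higher, 1 was below -1, 2 lower genes were -1 genes, and the medians were 0.0613, 0.17 and -0.14. Leaving out each library gave 22 to 24 lower genes, 2 higher, 15 to 16 lower -1 genes, 7 to 8 lower -2 genes, and medians of -0.38 to -0.34, -0.54 to -0.50 and -0.30 to -0.27.

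Log2 fold changes that turned above 0 by library totals were aars-1 0.43, aars-2 0.0883, cars-1 0.51, cars-2 0.30, dars-1 0.0015, dars-2 0.18, ears-1 0.0473, ears-2 0.35, fars-2 0.49, hars-1 0.56, iars-1 0.0155, iars-2 0.25, kars-1 0.34, lars-1 0.32, lars-2 0.29, mars-1 0.54, nars-1 0.55, qars-1 0.0654, rars-1 0.12, sars-2 0.31, vars-1 0.10 and wars-1 0.19. By quantile normalization, those that changed sign were aars-2 0.30, cars-1 0.39, dars-1 0.22, ears-1 0.25, hars-1 0.37, iars-1 0.23, kars-1 0.61, lars-1 0.50, mars-1 0.71, nars-1 0.65, nars-2 -0.0390, pars-1 0.0795, qars-1 0.10, rars-1 0.16, sars-1 0.0430 and tars-1 0.18. By median centring these were nars-2 -0.20 and yars-2 -0.0769. Without mutant replicate 1, nars-1 was 0.0074, within a range of -0.0863 to 0.0074 over the left-out libraries. No pair ratio changed sign when a library was left out, except lars-1 to lars-2, which ranged from -0.0307 to 0.0806.

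Quantile normalization, added for the ratios after seeing the data, turned the log2 changes of sars-1 to sars-2 (0.23), iars-1 to iars-2 (0.24), dars-1 to dars-2 (0.68), aars-1 to aars-2 (-0.45), ears-1 to ears-2 (0.55) and nars-1 to nars-2 (0.69).

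The labels do not say whether the replicate number pairs the libraries, and low correlations cannot exclude it. Running sample numbers in the column names alternate between the strains, replicate by replicate. Deviations from the strain means of same-numbered libraries correlated at 0.0731, 0.0621, 0.0076 and -0.0167, and with the replicate block limma called 23 genes lower and 2 higher, cars-2 being lost (adjusted p = 0.0783). The compartment could not be taken from protein names, since the annotation used here holds none, and that alternative was not run. The gene cars-2 had 103 to 161 reads per library, against at least 293 for every other synthetase gene.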
